A study of Homo sapiens with 16 samples.

Results

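The response of cells to foreign RNA was examined through 10 genes in LNCaP cells: DDX58, IFIH1, DHX58, TLR3, EIF2AK2, MAVS, ADAR, TRIM25, TBK1 and IRF3. They were chosen by symbol, as sensors and signalling partners that could respond to transfected double-stranded RNA, and all 10 were found among the 20531 entries of the count table. LNCaP is a prostate cancer line that still responds to androgen. For 24 h the cells were exposed to siRNA at 40 nM, either 1 custom nonsense control (NS) or a commercial pool of several duplexes directed at SLIRP. SLIRP is an RNA-binding coregulator of the androgen receptor. They were then held for a further 24 h in medium without serum, to which ethanol vehicle (Veh) or dihydrotestosterone (DHT, an androgen) at 1 nM had been added. The 4 groups of 4 libraries are called NS-Veh and NS-1nM DHT for the nonsense control, and SLIRP-Veh and SLIRP-1nM DHT for the knockdown. Every group received siRNA, and no library of untransfected cells was analysed here. A lower level with SLIRP siRNA therefore cannot be told apart from a higher level with NS. The siRNAs also differ in sequence and source as well as in target, and these cannot be told apart here.

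RNA sensors tell foreign or misplaced RNA from the cell's own transcripts. RIG-I, the product of DDX58, and MDA5, the product of IFIH1, are cytoplasmic helicases that bind double-stranded RNA and signal through MAVS, an adaptor on mitochondria. LGP2, the product of DHX58, lacks the signalling domain and modulates both. TLR3 detects double-stranded RNA in endosomes, and PKR, the product of EIF2AK2, halts translation when it binds such RNA. TRIM25 is a ubiquitin ligase that activates RIG-I, TBK1 is the kinase that phosphorylates IRF3, and IRF3 then switches on type I interferon genes. ADAR edits adenosine to inosine in double-stranded RNA and so keeps the cell's own RNA from being sensed. Interferon in turn raises several of these genes, among them DDX58, IFIH1, DHX58, EIF2AK2 and one isoform of ADAR.

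A common mark of genes that respond to interferon is the interferon-stimulated response element, whose core holds GAAA, any 2 bases, and GAAA again. RefSeq promoters (GRCh38.p14, from 250 bases before to 50 after the gene start) were held for 8 of the 10 genes, all except DHX58 and IRF3, and both strands were searched. The core was present in the promoters of IFIH1, TLR3 and EIF2AK2, that is in 3 of 8 genes (37.5%), against 4.38% of 27305 genes with a promoter and 68.6% of 35 listed interferon-stimulated genes. With 3 bases between the repeats, the only other spacing searched, 1 of the 8 genes (12.5%) had a match, DDX58. That stands against 3.54% of all genes and 14.3% of the listed interferon-stimulated genes. The windows around these matches are shown because they hold the letters the search turned on. They are given 5′ to 3′ on the strand of the gene, with the matched bases in capitals, so that TTTC marks a match on the opposite strand. The IFIH1 window farther from the start holds 2 overlapping matches.
DDX58, chr9:32526304-32526364, minus strand, match beginning 143 bases before the start, 3 bases between repeats: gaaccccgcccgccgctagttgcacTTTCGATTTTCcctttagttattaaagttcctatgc
IFIH1, chr2:162318803-162318868, minus strand, matches beginning 159 bases before the start: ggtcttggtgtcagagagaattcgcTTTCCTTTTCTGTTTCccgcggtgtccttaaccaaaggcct
IFIH1, chr2:162318671-162318730, minus strand, match beginning 21 bases before the start: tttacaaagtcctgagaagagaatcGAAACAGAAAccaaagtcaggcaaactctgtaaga
TLR3, chr4:186069127-186069170, plus strand, match beginning 4 bases before the start: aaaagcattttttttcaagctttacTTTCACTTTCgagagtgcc
EIF2AK2, chr2:37156966-37157011, minus strand, match beginning 6 bases before the start: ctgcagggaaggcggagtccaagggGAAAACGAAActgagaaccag
A match is a run of letters and not a measured binding site. MAVS, ADAR, TRIM25 and TBK1 had neither form in these windows.

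Library totals lay between 436353 and 1689708 estimated counts, so that 3 counts, the smallest share read as present, correspond to between 1.78 and 6.88 CPM (counts made comparable between libraries by their totals). SLIRP itself, listed under its former symbol C14orf156, lay between 44.3 and 63.6 CPM (here and below scaled by edgeR's TMM factors) in the 8 NS libraries and between 1.41 and 8.13 CPM in the 8 SLIRP siRNA libraries, in accord with the labels. All 8 luminal prostate markers had counts in every library, though KLK2 fell to 1 count in the lowest. Of 14 markers of immune, endothelial, fibroblast and basal cells, 8 had no counts in any library, PTPRC, CD3E, PECAM1, KRT5 and TP63 among them. The endothelial marker VWF (2 to 20 counts) and the fibroblast marker COL1A1 (4 to 25 counts) had counts in every library. CD68, an immune marker, had up to 6 counts and was at 0 in 1 library. CD14, COL1A2 and KRT14 had at most 2 counts in any library. The summed level of those 14 genes was 24.5 to 38.8 CPM with NS and 15.5 to 32.4 CPM with SLIRP siRNA. The summed level of the luminal markers was 3518 to 3965 CPM with NS and 2778 to 3042 CPM with SLIRP siRNA. FOLH1 alone made up 1024 to 2108 CPM of it, and the markers did not move together. By the test described below, 4 of the 8 were lower in DHT and 3 higher (KLK2, KLK3 and TMPRSS2), beside 11.6% and 12.8% of all genes. In vehicle 4 were lower and 1 higher (KLK3), beside 9.95% and 11.8%. The part of these differences in the results below was not tested. In bulk RNA, fewer cells of one state and less RNA per cell cannot be told apart. The paper's methods describe 2 replicates from each of 2 experiments without saying which library belongs to which. No values within an experiment could therefore be given, and p-values measure the spread between these libraries. The tests treat the libraries of a group as independent, which replicates of 1 experiment may not be.

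Per unit of exon length the 10 genes differed widely in NS-Veh. RPKM (CPM per kilobase of all exons of the gene) was 46.4 ± 2.01 (SD, n = 4) for ADAR, 30.5 ± 0.948 for MAVS, 14.5 ± 1.10 for TRIM25 and 9.26 ± 0.936 for EIF2AK2. It was 7.005 ± 1.79 for DDX58, 6.59 ± 1.09 for IRF3, 5.26 ± 1.21 for IFIH1 and 4.47 ± 0.443 for TBK1. TLR3, at 0.989 ± 0.244, and DHX58, at 0.926 ± 0.662, came last. The ranges of the 4 libraries did not overlap between ADAR and MAVS, MAVS and TRIM25, TRIM25 and EIF2AK2, or TBK1 and TLR3. The ranges of EIF2AK2, DDX58, IRF3, IFIH1 and TBK1 overlapped from each to the next, and so did those of TLR3 and DHX58. The RNA editor and the mitochondrial adaptor were thus far above the sensors, and among the sensors the endosomal TLR3 and the modulator LGP2 were near the limit of this depth. The length used moved some of these levels: divided by the longest transcript, DDX58 came to 14.6, TRIM25 to 31.4, TBK1 to 11.1 and ADAR to 78.1, and TRIM25 then stood above MAVS, at 30.6.

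**Figure D1:**
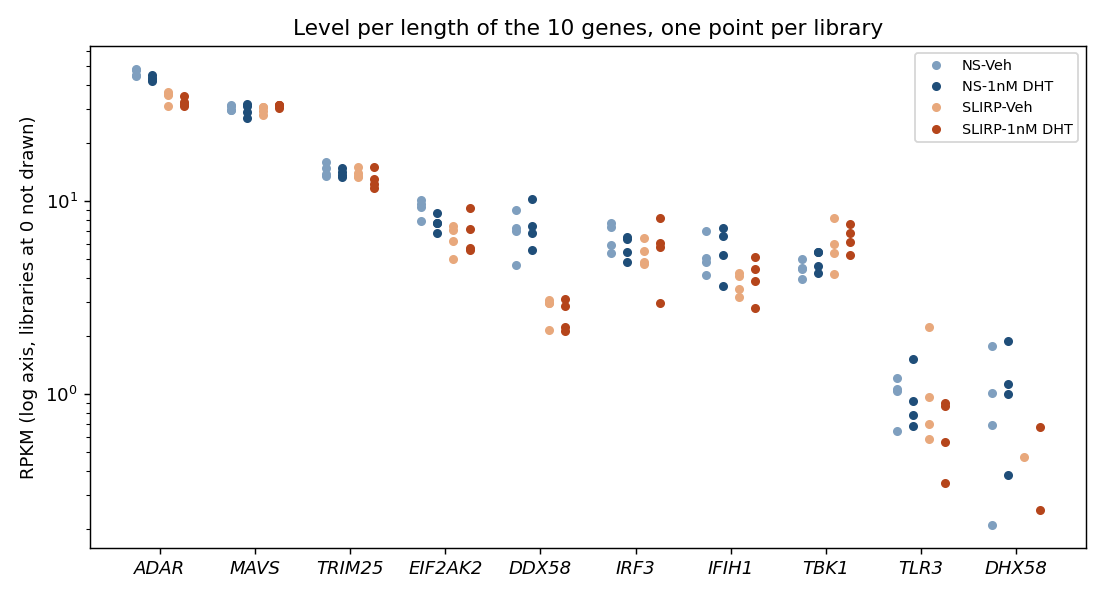
Level per length of the 10 genes in 16 libraries, as RPKM on a log axis, with 1 point per library, coloured by group and ordered by the mean in NS-Veh. ADAR and MAVS are highest and TLR3 and DHX58 lowest in NS-Veh, and the points of DDX58 with SLIRP siRNA all lie below those with NS.

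The question put to these genes was whether their mRNA differed between the siRNAs, with and without androgen. Across 8 SLIRP siRNA and 8 NS libraries, 8 of the 10 genes passed the filter on low counts; DHX58 and TLR3 did not. By edgeR's quasi-likelihood test, with p-values adjusted by the Benjamini-Hochberg method and called at a false discovery rate (FDR) of 0.01, DDX58 and ADAR were lower with SLIRP siRNA and TBK1 was higher. The 2 of 8 genes lower stand beside 17.4% of the 10167 genes tested, and 1 of 8 higher beside 17.8%. The share of the 8 genes called was thus near the background in both directions. Their median log2 fold change was -0.24, against -0.01 over all genes tested. DDX58 had a log2 fold change of -1.42, while the other 7 lay between -0.48 and 0.38.

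DDX58 (Entrez 23586, now named RIGI, chromosome 9, 32455300 to 32526206 of hg19) encodes the sensor RIG-I. Its CPM in replicates 1 to 4 was 93.2, 72.9, 75.5 and 48.2 in NS-Veh and 106.1, 70.9, 76.9 and 57.5 in NS-1nM DHT. With SLIRP siRNA it was 30.6, 32.0, 22.4 and 30.7 in vehicle and 32.3, 29.6, 23.1 and 21.9 in DHT. The highest SLIRP siRNA library lay below the lowest NS library, a full separation of 8 from 8 libraries that 6.89% of the genes tested showed in this direction. Mean levels were 75.2 ± 18.3 CPM with NS and 27.8 ± 4.53 CPM with SLIRP siRNA (SD, n = 8 each). The log2 fold change was -1.42 (standard error 0.15, edgeR FDR 3.254e-09), and it lay between -1.49 and -1.32 with any 1 library left out. Within the NS groups replicate 4 was the lowest in both vehicle and DHT. DDX58 shares exonic sequence with 1 unnamed locus on the same strand.

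IFIH1 (Entrez 64135, chromosome 2, 163123584 to 163175194) encodes MDA5, the sensor of longer double-stranded RNA. Its CPM was 25.2, 36.4, 26.5 and 21.7 in NS-Veh and 38.1, 34.3, 27.6 and 18.9 in NS-1nM DHT. It was 22.2, 21.3, 18.4 and 16.7 in SLIRP-Veh and 23.3, 26.8, 20.2 and 14.6 in SLIRP-1nM DHT. The siRNA groups overlapped, replicate 4 being the lowest library in all 4 groups. The log2 fold change was -0.48 (standard error 0.17, edgeR FDR 0.01975), which missed the threshold. With NS-1nM DHT replicate 4 left out the FDR was 0.00626, the only 1 of 16 such fits past the threshold. In those fits the FDR reached 0.0597, and 0.0752 with a replicate number left out.

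DHX58 (Entrez 79132, chromosome 17, 40253422 to 40264732), which encodes LGP2, was read from a handful of counts. There were 2, 3, 4 and 1 counts in NS-Veh and 7, 5, 5 and 2 in NS-1nM DHT. SLIRP-Veh held 3, 0, 0 and 0 counts, and SLIRP-1nM DHT 2, 0, 1 and 0. No NS library and 5 of 8 SLIRP siRNA libraries were at 0. Summed over libraries, 29 counts stood against 6, a ratio of SLIRP siRNA to NS per library total of 0.221 (exact conditional 95% interval 0.0750 to 0.541, counting error only). Without the filter on low counts the edgeR log2 fold change over 16 libraries was -2.07 (FDR 0.00549), a value that depends on the prior count.

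TLR3 (Entrez 7098, chromosome 4, 186990065 to 187009227), the endosomal sensor, had 4 to 15 counts per library with NS and 2 to 12 with SLIRP siRNA. Its CPM was 7.77, 9.11, 7.95 and 4.82 in NS-Veh and 5.15, 11.4, 6.91 and 5.82 in NS-1nM DHT. It was 7.20, 16.8, 5.26 and 4.38 in SLIRP-Veh and 2.59, 4.23, 6.73 and 6.50 in SLIRP-1nM DHT. The groups overlapped, and SLIRP-Veh replicate 2 was the highest library. Summed over libraries, 62 counts with NS stood against 52 with SLIRP siRNA, a ratio of 0.895 (exact conditional 95% interval 0.607 to 1.32, counting error only). A change of the size seen in DDX58 lies outside that interval, but the interval leaves out the spread between libraries. Changes inside the interval were not detectable at this depth.

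EIF2AK2 (Entrez 5610, chromosome 2, 37326353 to 37384665) encodes PKR. Its CPM was 103, 107, 111 and 87.6 in NS-Veh and 85.5, 84.7, 95.9 and 75.6 in NS-1nM DHT. It was 78.6, 82.2, 55.2 and 68.4 in SLIRP-Veh and 102, 63.4, 78.9 and 61.8 in SLIRP-1nM DHT. In vehicle every SLIRP siRNA library lay below every NS library, which 13.9% of 10684 genes tested also showed in this direction. In DHT the groups overlapped, and replicate 1 of SLIRP-1nM DHT was above all 4 NS-1nM DHT libraries. Over 16 libraries it stood at -0.34 on the log2 scale (standard error 0.11, edgeR FDR 0.01143), just short of the threshold. It was called with the treatment as a covariate (FDR 0.00549) and with upper-quartile normalization (FDR 0.00941). With 1 library left out the FDR lay between 0.00199 and 0.0453, past the threshold in 3 of 16 fits. With a replicate number left out the FDR reached 0.165 and passed in 1 of 4 fits. Exons of EIF2AK2 overlap ARL14EPP1 and GPATCH11 on the other strand, and the strand of counting is not given in the sources used here, so its level is uncertain to that extent.

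**Figure D2:**
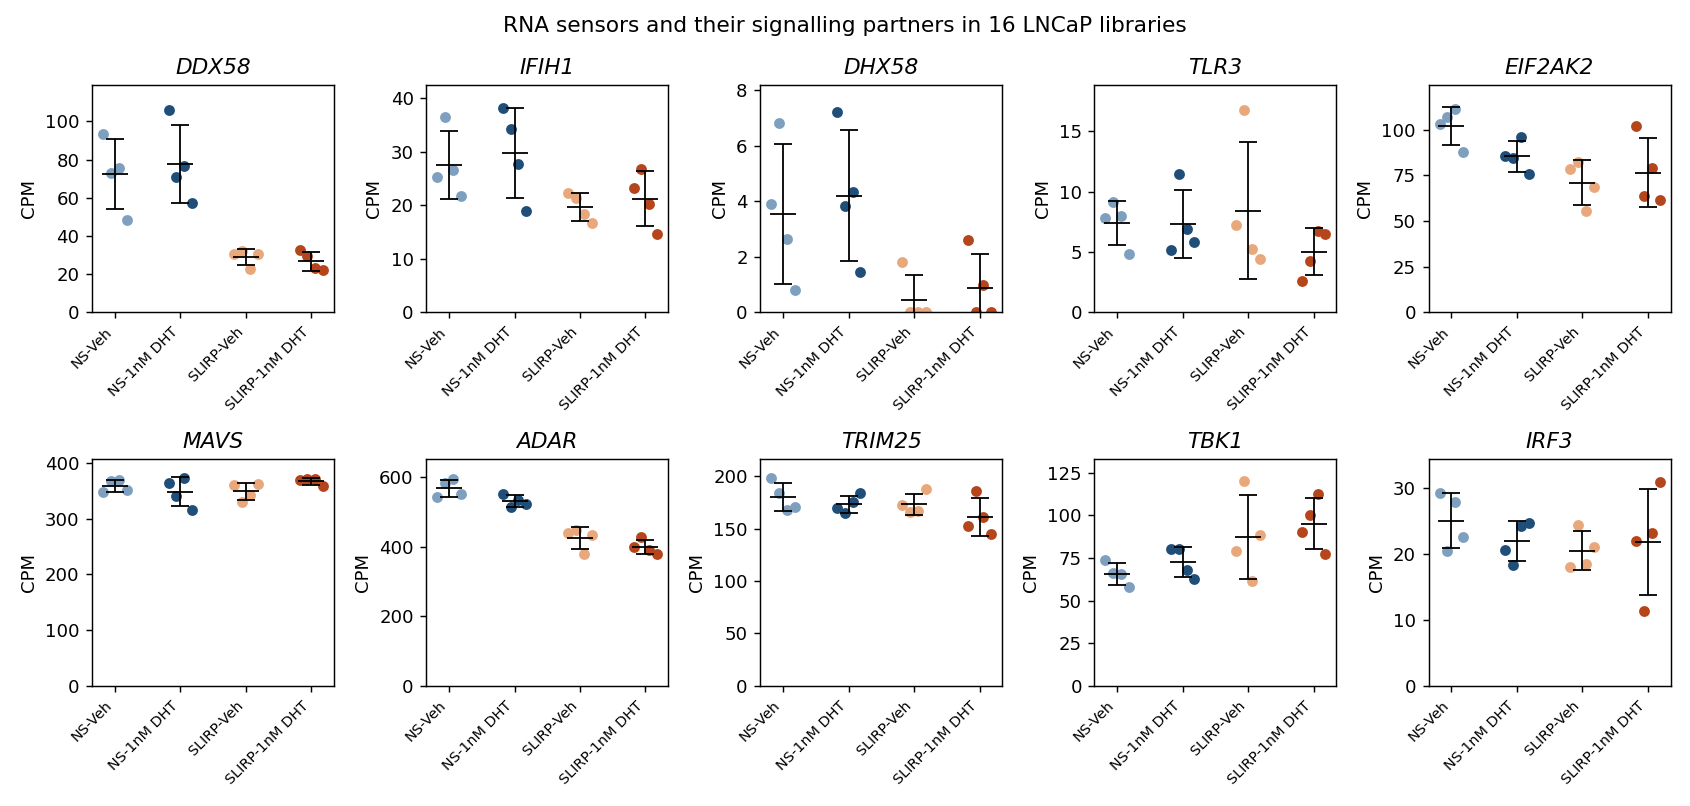
CPM of each of the 10 genes (vertical axes start at 0 and differ between panels) in the 4 groups, with 1 point per library in the order of replicates 1 to 4 and a bar for the mean ± SD of 4 libraries. DDX58 and ADAR are the 2 genes whose 8 SLIRP siRNA points all lie below the 8 NS points, as do those of 6.89% of the genes tested. MAVS lies between 315.7 and 373.1 CPM in all 16 libraries.

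MAVS (Entrez 57506, chromosome 20, 3827446 to 3856770), through which RIG-I and MDA5 signal, lay between 316 and 373 CPM with NS and between 330.5 and 371 CPM with SLIRP siRNA. Its mean was 354 ± 19.2 CPM (SD, n = 8) and 358 ± 14.3 CPM (SD, n = 8). The log2 fold change was 0.01 (standard error 0.058, edgeR FDR 0.9097). This was the most precisely measured of the genes without a call.

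ADAR (Entrez 103, chromosome 1, 154554171 to 154600489), the RNA editor, had a CPM of 542, 583, 594 and 553 in NS-Veh and 553, 513, 535 and 523 in NS-1nM DHT. It was 439, 448, 379.9 and 433 in SLIRP-Veh and 398, 427, 390.5 and 380.3 in SLIRP-1nM DHT. As with DDX58, the 8 SLIRP siRNA libraries all lay below the 8 NS libraries, which 6.89% of the genes tested also showed. Mean levels were 549 ± 27.9 CPM with NS and 412 ± 27.7 CPM with SLIRP siRNA (SD, n = 8 each). This gave a log2 fold change of -0.42, with a standard error of 0.058 and an edgeR FDR of 4.789e-07. It passed the threshold in each of the 16 fits with 1 library left out, with values from -0.45 to -0.40. The counts are per gene, so the interferon-inducible isoform was not told apart from the constitutive one.

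TRIM25 (Entrez 7706, chromosome 17, 54913748 to 54991441), the ligase that activates RIG-I, lay between 165 and 198 CPM with NS and between 145 and 188 CPM with SLIRP siRNA. The groups overlapped, and the log2 fold change was -0.08 (standard error 0.072, edgeR FDR 0.3626). Its exons overlap those of 4 annotated loci, C17orf67, MIR3614, DGKE and an unnamed one, so reads may be shared.

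TBK1 (Entrez 29110, chromosome 12, 64845870 to 64895894), the kinase downstream of MAVS and of TLR3, had a CPM of 73.8, 66.0, 65.6 and 57.9 in NS-Veh and 80.3, 80.1, 68.2 and 62.5 in NS-1nM DHT. It was 79.2, 120.3, 61.8 and 88.6 in SLIRP-Veh and 90.5, 100.1, 112 and 77.2 in SLIRP-1nM DHT. SLIRP-Veh replicates 1 and 3 and SLIRP-1nM DHT replicate 4 fell within the NS range, so the groups overlapped. The log2 fold change was 0.38 (standard error 0.12, edgeR FDR 0.00768). With 1 library left out the FDR lay between 0.00168 and 0.0247. The call was lost in 9 of these 16 fits, namely without NS-Veh replicates 2, 3 or 4, NS-1nM DHT replicates 3 or 4, SLIRP-Veh replicate 2, or SLIRP-1nM DHT replicates 1, 2 or 3. It was also lost with replicate number 2, 3 or 4 left out (FDR 0.0283, 0.0233 and 0.0321) and with limma on the normalized table (FDR 0.0407 and 0.0405). TBK1 overlaps 2 unnamed loci.

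IRF3 (Entrez 3661, chromosome 19, 50162826 to 50169132), the transcription factor at the end of the pathway, had 8 to 42 counts per library. Its CPM lay between 18.3 and 29.1 with NS and between 11.3 and 30.9 with SLIRP siRNA, both extremes of the latter being SLIRP-1nM DHT libraries (replicates 2 and 4). The log2 fold change was -0.14 (standard error 0.17, edgeR FDR 0.5108). Its exons overlap BCL2L12 on the other strand.

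In vehicle and in DHT taken separately, as contrasts of 1 model of the 4 groups over 10684 genes, DDX58 and ADAR were lower in both. These contrasts use the same 16 libraries as the comparison of 8 with 8 and are no independent repeat of it. In vehicle 3 of the 8 genes were lower, beside 9.95% of all genes tested, and 0 were higher, beside 11.8%. On the log2 scale DDX58 differed by -1.25 (standard error 0.21, edgeR FDR 8.483e-06), ADAR by -0.42 (standard error 0.075, FDR 2.850e-05) and EIF2AK2 by -0.51 (standard error 0.15, FDR 0.00692). The EIF2AK2 call was lost with DESeq2 (FDR 0.0111), with limma on the normalized table (FDR 0.0376 and 0.0372 with pseudocounts of 1 and 0.1), and with all libraries of replicate number 1 or 3 left out (FDR 0.0119 and 0.131). It was also lost in 5 of 16 fits with 1 library left out: NS-Veh replicates 1, 2 or 3 (FDR 0.0134, 0.0142 and 0.0566) and SLIRP-Veh replicates 3 or 4 (FDR 0.0273 and 0.0269). In DHT 2 of 8 were lower, beside 11.6% of all genes, and 0 were higher, beside 12.8%. DDX58 differed by -1.57 (standard error 0.20, edgeR FDR 1.058e-07) and ADAR by -0.43 (standard error 0.074, FDR 1.659e-05), while EIF2AK2 stood at -0.18 (standard error 0.14, FDR 0.3489). TBK1 had similar values in both, 0.41 (standard error 0.16, edgeR FDR 0.0501) in vehicle and 0.37 (standard error 0.15, FDR 0.0506) in DHT, and was called in neither.

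The difference between the siRNA effect in DHT and in vehicle was tested as an interaction. It was called for 0 of the 8 genes and 0.00% of the 10684 genes tested (edgeR FDR 0.9999 for all 8 genes). At an unadjusted p under 0.05 the interaction counted 0 of the 8 genes and 388 of all genes, and DESeq2 called 0 of the 8. Its log2 value was 0.32 (standard error 0.21) for EIF2AK2 and -0.32 (standard error 0.30) for DDX58, the others lying between -0.13 and 0.38. The call of EIF2AK2 in vehicle alone is therefore not shown to differ from DHT.

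DHT against vehicle was compared within each siRNA. In NS libraries 0 of the 8 genes were called, beside 1.31% of 10367 genes tested. After SLIRP siRNA it was again 0 of 8, beside 1.17% of 10684 genes. In NS libraries 1 of the 8 had an unadjusted p under 0.05, EIF2AK2, at -0.26 on the log2 scale (standard error 0.12, edgeR FDR 0.3129), and after SLIRP siRNA none did. Over all genes 1478 of 10367 and 1663 of 10684 had such a p. DESeq2 called 0 of the 8 in each. DDX58 stood at 0.14 (standard error 0.17) with NS and -0.17 (standard error 0.24) with SLIRP siRNA, and ADAR at -0.11 in both (standard errors 0.067 and 0.076). These comparisons share libraries with the siRNA comparisons in vehicle and in DHT. At this depth DHT differences of the size of the standard errors were not detectable.

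**Figure D3:**
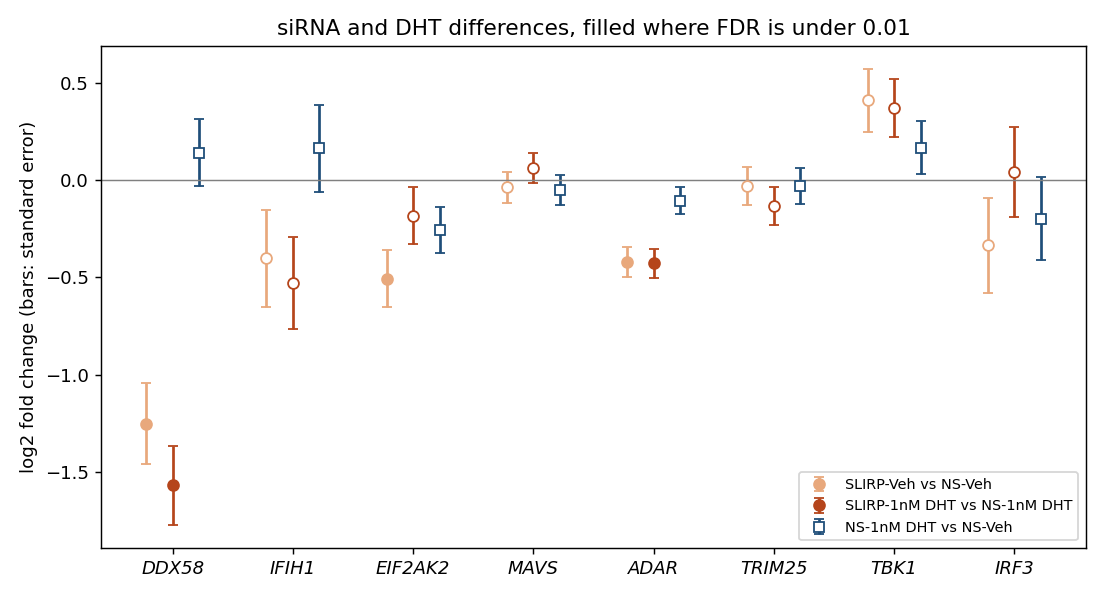
Log2 fold change (vertical axis, bars are 1 standard error) of the 8 genes that passed the low-count filter, for SLIRP siRNA against NS in vehicle and in DHT and for DHT against vehicle in NS libraries. Filled points passed an edgeR FDR of 0.01: DDX58 and ADAR in both siRNA comparisons and EIF2AK2 in vehicle alone, with 0 filled points for DHT.

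The genes whose log2 CPM most resembled that of each called gene over the 16 libraries were named from 8341 candidates with a mean of at least 20 counts. Since the siRNAs form separate sets of libraries, the correlation within the 8 NS and the 8 SLIRP siRNA libraries is given beside the one over all 16. For DDX58 they were IFIT3 (Pearson r 0.96, within sets 0.90 and 0.56), ACBD3 (0.96, within sets 0.86 and 0.74) and IFIT2 (0.95, within sets 0.78 and 0.28). IFIT3 and IFIT2 are interferon-stimulated genes, and ACBD3 is a Golgi protein. For ADAR they were TTC3 (0.97, within sets 0.70 and 0.81), ATP11A (0.97, within sets 0.50 and 0.92) and CALR (0.97, within sets 0.73 and 0.72). For TBK1 they were EIF5B (0.86, within sets 0.76 and 0.78), RRM2B (0.86, within sets 0.67 and 0.80) and AKAP1 (0.86, within sets 0.71 and 0.80). By rank correlation 1 of the 3 was shared for each of the called genes: ACBD3, ATP11A and EIF5B.

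The genes around the sensors were read from lists, all in the comparison of 8 with 8 libraries, in which 17.8% of the 10167 genes tested were higher and 17.4% lower, with a median of -0.01. Of 25 other RNA helicases and RNA-binding sensors 20 were tested, of which 8 were higher and 2 lower, with a median log2 fold change of 0.20. The 2 that were lower are paralogs: DDX60, a helicase reported to assist RIG-I, with -2.87 (edgeR FDR 1.311e-12), and DDX60L, with -0.90 (edgeR FDR 0.00269, named after its value was seen). Some reads could have been split between these paralogs, which was not measured. In vehicle DDX60 was 68.4 ± 11.4 CPM with NS and 10.5 ± 4.96 CPM with SLIRP siRNA (SD, n = 4 each). Among those that were higher, DDX3X, a general RNA helicase that also binds MAVS, stood at 0.81 (edgeR FDR 7.949e-12). HMGB1, a nuclear protein that also binds foreign nucleic acid, stood at 0.73 (edgeR FDR 3.862e-09).

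Of 31 adaptors, kinases and factors downstream of the sensors 26 were tested, with 1 higher, 5 lower and a median of -0.10. The share that was lower was near the 17.4% of all genes, and the share that was higher was under the 17.8% of all genes. CASP8, a caspase recruited to these complexes, was higher by 0.95 (edgeR FDR 4.132e-07). TAB2, an adaptor of the kinase TAK1, was lower (-0.53, edgeR FDR 1.792e-06), as was AZI2, an adaptor of TBK1 (-0.44, edgeR FDR 0.00451). The AZI2 call was lost in 7 of 16 fits with 1 library left out, in 3 of 4 with a replicate number left out, and with limma on the normalized table (FDR 0.0157 and 0.0159). The other 3 lower genes, named after their values were seen, were IRF7, the interferon-inducible relative of IRF3, with -1.66 (edgeR FDR 5.137e-08), UNC93B1, which carries TLR3 to endosomes, with -1.05 (edgeR FDR 4.319e-05), and TRAF3 with -0.42 (edgeR FDR 0.00647). IRF7 was 22.1 ± 5.05 CPM in NS-Veh and 5.99 ± 2.86 CPM in SLIRP-Veh (SD, n = 4), whereas IRF3 in the same libraries was 24.99 ± 4.15 and 20.5 ± 2.94 CPM.

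Of 30 regulators of RIG-I and MAVS, 27 were tested, with 6 higher, 4 lower and a median of -0.03, and both shares were near those of all genes. USP15 and CYLD, deubiquitinases that act on TRIM25 and on RIG-I, were higher by 0.79 (edgeR FDR 1.356e-09) and 0.73 (edgeR FDR 0.000122). C1QBP, a mitochondrial protein that binds MAVS, was higher by 0.72 (edgeR FDR 2.316e-09). Of 16 genes of the other eIF2 kinases and the eIF2 cycle, the translation step that PKR acts on, 15 were tested, with 4 higher, 3 lower and a median of 0.09, beside 17.8% and 17.4% of all genes. DNAJC3, an inhibitor of PKR, was lower (-0.65, edgeR FDR 1.738e-07). EIF2B2 and EIF2B4, subunits of the exchange factor for eIF2, were higher by 0.62 (edgeR FDR 0.00385) and 0.54 (edgeR FDR 0.00237). EIF2B2 lost its call in 2 and EIF2B4 in 1 of 16 fits with 1 library left out, and in 3 and 2 of 4 with a replicate number left out. EIF2B4 also lost it with limma on the normalized table (FDR 0.0144 and 0.0145).

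Interferon-stimulated genes were for the most part lower with SLIRP siRNA. Of 45 listed, 28 were tested, with 24 lower, 1 higher and a negative value for 27, and the median was -1.21, beside 17.4% of all genes lower. That median holds for the genes that passed this filter on low counts. In the 4-group model 35 passed, with a median of -2.16 in vehicle and -2.02 in DHT. In each 26 were lower, beside 9.95% and 11.6% of all genes. A gene could pass either filter through its NS libraries alone, where most of these genes were higher. The medians and counts therefore depend in part on which genes were let in. The log2 fold change was -4.92 for OASL (edgeR FDR 6.316e-15), -4.29 for IFIT1 (edgeR FDR 4.553e-16) and -4.11 for IFITM1 (edgeR FDR 8.166e-14). OASL is a relative of the oligoadenylate synthetases that enhances RIG-I, IFIT1 binds foreign 5′ RNA ends, and IFITM1 restricts viral entry. The 1 higher gene was STAT2 (0.37, edgeR FDR 0.00312, named after its value was seen), a subunit of the factor that interferon activates. The summed level of the 45 genes was 1836 to 2548 CPM over the 8 NS libraries and 756 to 920.3 CPM over the 8 SLIRP siRNA libraries, with no overlap. The list was chosen with the lower level of several of its genes with SLIRP siRNA already known, so its count is a description.

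Genes for interferons themselves were at or near 0 in both siRNAs. IFNA1, IFNE, IFNK, IL28A, IL6 and TNF had 0 counts in all 16 libraries, which allows up to 6.88 CPM in the shallowest library and 1.78 CPM in the deepest. IFNB1 and IL28B had 1 count each in 1 library, and IL29 3 counts over 2 libraries. The chemokine genes CXCL11 (33 counts with NS, 3 with SLIRP siRNA, ratio 0.0970, exact conditional 95% interval 0.0190 to 0.309), CCL5 (57 and 9, ratio 0.169, interval 0.0733 to 0.343) and CXCL10 (22 and 6, ratio 0.291, interval 0.0966 to 0.740) had few counts and fewer with SLIRP siRNA, all intervals covering counting error only. Of 18 interferon, cytokine and receptor genes 4 were tested, with 0 called by edgeR or by DESeq2, 0 at an unadjusted p under 0.05, and a median of 0.08. The receptor gene IFNAR1 lay between 127 and 190.3 CPM over the 16 libraries, and JAK1, a kinase of that receptor known to be poorly expressed in LNCaP, between 2.18 and 10.7 CPM, from 1 to 9 counts.

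**Figure D4:**
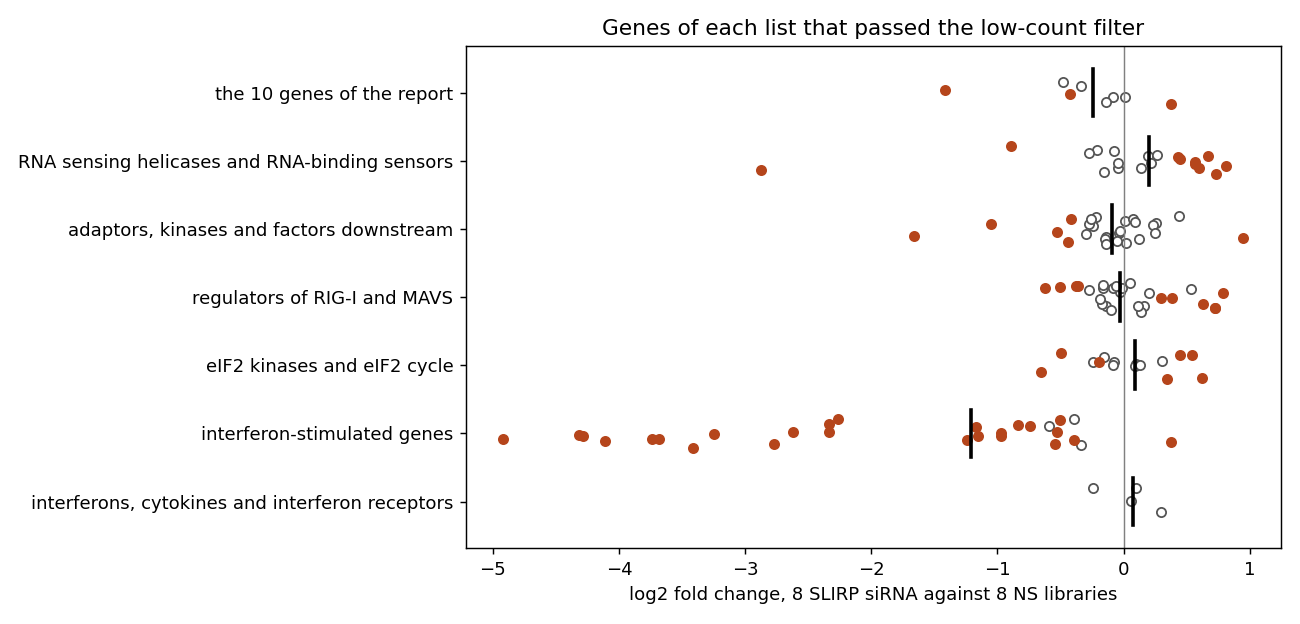
Log2 fold change over 8 SLIRP siRNA against 8 NS libraries (horizontal axis) for the genes of each list that passed the low-count filter, with 1 point per gene, filled where the edgeR FDR was under 0.01, and a black bar at the median. The median is -1.21 for interferon-stimulated genes and lies between -0.24 and 0.20 for the others drawn, the 10 genes themselves included. The luminal and other cell markers are left out.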

How the data were processed

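RNA from 16 LNCaP samples (4 groups of 4) was read as single 50-base reads on hg19. The authors deposited estimated counts per gene, as whole numbers, for 20531 entries (29 without a symbol), and a normalized table of 13148 genes, a score made by the authors by dividing each library's counts by its upper quartile and multiplying by 1000. The submitters' processing notes name CASAVA and RSEM, and versions are not given in the sources used here. The whole count table was fitted with edgeR 4.0.16 in R 4.3.3 (TMM, filterByExpr with its minimum count of 10, glmQLFit and glmQLFTest, Benjamini-Hochberg over all genes tested, FDR 0.01). SLIRP siRNA against NS used 16 libraries without a covariate, DHT against vehicle in NS the 8 NS libraries, and the rest contrasts of a 4-group model. All comparisons were two-sided. The model was tested on simulated data. RPKM is CPM divided by the union of GENCODE exons on hg19 in kilobases. Log2 CPM used a prior count of 2.

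The 10 genes and the lists were chosen with earlier results of these data known. Named were the 10 genes, SLIRP, the 3 largest changes per list among genes past the FDR with a mean of at least 20 counts, and the 3 genes most like each called gene. The alternatives comprised DESeq2 1.42.0, RLE or upper-quartile scaling, no filter or a minimum of 10 counts everywhere, a treatment term, a replicate block, fits on subsets of groups, an FDR of 0.05, a minimum fold of 1.5, limma 3.58.1 on log2 of the normalized table plus 1 or 0.1, and omission of single libraries or of all libraries sharing a number. Libraries of a group differed by more than sampling noise (chi-square per degree of freedom 1.21 to 2.37). Replicates 1 and 2, and 3 and 4, were the closest pairs in NS-Veh (1.24 and 1.38) and in NS-1nM DHT (1.22 and 1.30). In SLIRP-Veh replicates 3 and 4 were closest (1.21), but 1 and 2 were at 1.95. Figures used matplotlib 3.10.9 in Python 3.11.15.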

Additional observations from a re-analysis of the deposited data

Results flagged for a closer look

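Among the 10 genes, 3 values stood apart from the other 3 libraries of their group, with a gap to the nearest library that exceeded Dixon's 95% critical share of the group's range. DDX58 in SLIRP-Veh was 22.4 CPM in replicate 3, below 30.6, 30.7 and 32.0 CPM in the others. DHX58 in SLIRP-Veh was 1.80 CPM in replicate 1, from 3 counts, and 0 in the others. With the others tied at 0, any count above 0 would have been marked. MAVS in SLIRP-1nM DHT was 358 CPM in replicate 4, against 369, 370.3 and 371 CPM. A total of 40 groups were examined, and chance alone marks about 1 in 20 of them, a rate that does not hold for values tied at 0. No difference of the siRNA effect between vehicle and DHT was called for these genes.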

How the results depend on the processing

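Over 16 libraries 3 of the genes were called, 5 at an FDR of 0.05 (IFIH1 and EIF2AK2 added) and 1, DDX58, when a fold change of at least 1.5 was also required. That requirement left 1 of 3 in vehicle and 1 of 2 in DHT. DDX58 kept its call in the siRNA comparisons under every alternative run, and ADAR under every one except that fold change. With 1 library or 1 replicate number left out, the count of called genes lay between 2 and 4 over 16 libraries, between 2 and 3 in vehicle and at 2 in DHT. Of 1406 fold changes of single genes under alternatives, 1311 kept their direction and their side of the threshold, 29 lost and 10 gained a call, and 56 changed sign, none of these past the threshold. In the promoters, the spacing of 3 bases gave 1 gene in place of 3. Depth limits DHX58, TLR3 and IRF3 most. Where no cause is named, the cause was not tested.

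The values that changed sign lay between -0.1255 and 0.185 in the main fits. On the normalized table, with a pseudocount of 1 and of 0.1, MAVS over 16 libraries was -0.016 in both, IRF3 in DHT -0.133 and -0.134, and IRF3 for DHT after SLIRP siRNA -0.0222 and -0.0226. The interaction of ADAR was 0.0109 with DESeq2, 0.0123 with RLE and 0.00278 without a filter. With libraries or numbers left out, MAVS over 16 libraries ranged from -0.0175 to 0.0451, TRIM25 in vehicle from -0.0819 to 0.0293 and IRF3 in DHT from -0.174 to 0.215. The interaction ranged from -0.280 to 0.0801 for IFIH1, -0.0443 to 0.0501 for ADAR, -0.200 to 0.0529 for TRIM25 and -0.253 to 0.152 for TBK1. The DHT difference in NS ranged from -0.0640 to 0.268 for DDX58 and -0.0851 to 0.0174 for TRIM25. After SLIRP siRNA it ranged from -0.0752 to 0.241 for IFIH1, -0.0704 to 0.207 for EIF2AK2, -0.0588 to 0.292 for TBK1 and -0.0310 to 0.445 for IRF3.

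Over all genes, limma on the normalized table with a pseudocount of 1 called 1391 genes against 2319 by edgeR in vehicle, 1369 against 2607 in DHT, 0 against 136 for DHT in NS and 12 against 125 for DHT after SLIRP siRNA. A fold change of at least 1.5 left 1874 of 3581 genes over 16 libraries, 1718 of 2607 in DHT, 74 of 136 and 68 of 125. An FDR of 0.05 gave 272 and 309 genes for DHT with NS and after SLIRP siRNA, and no filter gave 236 and 220, and 11 in place of 0 for the interaction. That fold change left 6 of 10 helicases and RNA-binding sensors, 3 of 6 adaptors, 5 of 10 regulators and 2 of 7 eIF2 genes, and a minimum of 10 counts in every library left 10 of 25 interferon-stimulated genes, which removes those that are low with SLIRP siRNA. Of the interferon and receptor genes 2 were called without a filter, against 0 with it.

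Same-numbered libraries deviated from their group means with correlations from 0.000428 to 0.200 over 6965 genes, under 0.1 in several pairs, so the numbers are not shown to pair the samples. With the replicate block, 4 genes were called over 16 libraries, EIF2AK2 being added (FDR 0.00246), 3 in vehicle and 2 in DHT, the interaction of TBK1 was 0.0033 in place of -0.039, and 270 genes in place of 136 were called for DHT in NS.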
